A study of Mus musculus with 144 samples.

Results

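The Period genes Per1, Per2 and Per3 were followed in mouse liver across the day as 3 of the 51912 rows of a gene count table, together with the polyadenylation sites that lie in them. The rows were taken by gene symbol in all 144 libraries. The sites were taken by position, and the site list kept by the authors holds 5 sites on the strand of these genes out of 29199 in all. Male C57BL/6J mice lived under 12 h light and 12 h dark with food and water always at hand, and their liver RNA was sequenced next to the poly(A) tail with QuantSeq 3′ libraries. There were 4 series, of which wild-type liver gave the total, the nuclear and the polysomal RNA and Bmal1-/- liver gave total RNA only. Each series had 6 libraries at zeitgeber time (ZT, hours after lights on) 2, 6, 10, 14, 18 and 22. Nuclei were spun through a sucrose cushion, and polysomes were taken from sucrose gradients run with cycloheximide. The labels give the ages of no animals, do not say which part of Bmal1 was deleted, and do not state whether libraries with the same replicate number came from the same animal, so p-values measure the spread between these libraries.

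The PER proteins are the repressing arm of the circadian clock. BMAL1 and CLOCK bind E-box elements in the Per and Cry genes and switch them on, and the PER and CRY proteins accumulate, enter the nucleus and repress BMAL1 and CLOCK until they are degraded. Per1 and Per2 also respond to outside signals, among them glucocorticoids, cAMP and body temperature, whereas Per3 is regarded as the member least needed to keep the clock running. D-box elements, bound by the proline- and acid-rich bZIP factors DBP, TEF and HLF, are a further class of clock element.

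Per1 (ENSMUSG00000020893) lies on the plus strand at chr11:69095108-69109965, Per2 (ENSMUSG00000055866) on the minus strand at chr1:91415977-91459351 and Per3 (ENSMUSG00000028957) on the minus strand at chr4:150997018-151044707, by the RefSeq table for GRCm38.p6. The strand of Per2 was taken from the site at its gene end. The RefSeq promoter table holds 32851 windows of 300 bases, from 250 before to 50 after a start site, and entries for 2 of the 3 members, Per1 and Per3, were matched. The windows printed are shown because the rhythm of the members was compared with and without Bmal1, whose element is the E-box. Capitals mark the matches to E-box CACGTG and D-box TTATGTAA or TTACGTAA, searched on both strands together with the cAMP response element TGACGTCA.
Per1, chr11:69098699-69098998, plus strand: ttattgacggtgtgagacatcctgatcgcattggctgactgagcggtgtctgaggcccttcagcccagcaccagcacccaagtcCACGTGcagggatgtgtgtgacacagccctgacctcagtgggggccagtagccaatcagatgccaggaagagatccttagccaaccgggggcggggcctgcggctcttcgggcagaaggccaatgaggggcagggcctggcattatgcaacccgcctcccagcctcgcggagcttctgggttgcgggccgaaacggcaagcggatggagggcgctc
Per3, chr4:151044616-151044915, minus strand: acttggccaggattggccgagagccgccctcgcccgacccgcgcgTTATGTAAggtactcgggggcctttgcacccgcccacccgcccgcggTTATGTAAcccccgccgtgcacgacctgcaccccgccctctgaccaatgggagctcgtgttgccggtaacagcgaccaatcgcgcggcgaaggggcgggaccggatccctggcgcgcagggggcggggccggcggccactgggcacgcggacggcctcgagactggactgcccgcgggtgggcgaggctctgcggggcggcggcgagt
The Per1 window holds an E-box whose leading base lies at position -166 from the start site, and E-boxes of these letters occur in 7.15% of all windows. The Per3 window holds 2 D-boxes, which begin at positions -205 and -158. A D-box of either spelling occurs in 1.06% of all windows. The cAMP response element occurs in 1.79% of all windows and in neither of those printed. Another Per1 window in the table, chr11:69099902-69100201, holds none of these letters.

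Libraries held from 5316601 to 9831142 gene counts in wild-type total RNA, 1662449 to 6620128 in nuclear RNA, 2578048 to 13068044 in polysomal RNA and 4379549 to 14281894 in Bmal1-/- RNA. Levels are CPM, the usual count scaled to the sum of all gene counts of the library. The 5 hepatocyte markers summed to 37878 to 97323 CPM in wild-type total RNA, and the 2 nuclear RNAs Malat1 and Neat1 had a median of 2726 CPM in nuclear and 58.7 CPM in polysomal RNA. In bulk RNA, fewer cells of a type and less RNA per cell cannot be told apart. Bmal1 itself, under its symbol Arntl, was counted at 5.17 to 18.6 CPM in the libraries labelled Bmal1-/- and at 0.251 to 19.3 CPM in wild-type total RNA. A 3′ tag outside the deleted part does not check the label. One library at ZT22 in each series carried more than 100 CPM of the female RNA Xist although the animals are labelled male, and the 6 polysomal libraries of replicate 1 held 58.3 to 955 CPM of 4 lung markers against a median of 0.475 CPM over that series. Another 4 markers, of pancreas, reached 1961 CPM in a polysomal library against a median of 0.333 CPM.

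All 3 Period genes were rhythmic in wild-type total RNA, and the fitted peak of Per3 lay ahead of those of Per1 and Per2. Per3, the member with the widest swing of the 3, was lowest at ZT2, where its 6 libraries ran from 0.311 to 3.11 CPM with a median of 1.28 CPM. At ZT10 they ran from 21.7 to 37.6 CPM with a median of 27.5 CPM. The ZT10 libraries lay above those of every other time point, and no library of ZT2 or ZT22 reached 6 CPM. Per3 fell to 13.6 CPM ± 5.94 (SD, n = 6) at ZT14, to 6.96 CPM ± 2.58 at ZT18 and to 1.85 CPM ± 1.66 at ZT22.

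Per1, which is induced by light and hormonal signals, ran from 0.316 to 1.69 CPM at ZT2 with a median of 0.832 CPM. At ZT10 its libraries ran from 11.1 to 18.8 CPM with a median of 13.0 CPM. The means at ZT14 and ZT18 were 8.49 CPM ± 2.70 and 8.40 CPM ± 4.40 (SD, n = 6 each), and the ranges of neighbours in the order of time points overlapped. Per2, the member whose loss most disturbs behavioural rhythm in mice, ran from 3.54 to 11.7 CPM at ZT2 with a median of 8.21 CPM. At ZT14 its libraries ran from 31.5 to 71.1 CPM with a median of 56.7 CPM. The ZT14 and ZT2 libraries did not overlap, whereas ZT10, ZT14 and ZT18 overlapped with means of 38.4, 55.4 and 41.2 CPM.

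Fits of a 24 h cosine to the counts (edgeR's quasi-likelihood test, adjusted by Benjamini-Hochberg over all genes tested, threshold 0.05) called 3 of 3 members in wild-type total RNA, where 18.9% of 11964 genes passed. The fitted log2 difference between peak and trough was 4.03 for Per3 with its peak at ZT11.4 (adjusted p = 1.56e-08), 3.46 for Per1 at ZT13.8 (adjusted p = 2.12e-06) and 2.85 for Per2 at ZT14.7 (adjusted p = 1.17e-07). These correspond to 16.3-, 11.04- and 7.21-fold. By the size of the swing, Per3 held place 13, Per1 place 19 and Per2 place 36 among the genes tested.

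**Figure D1:**
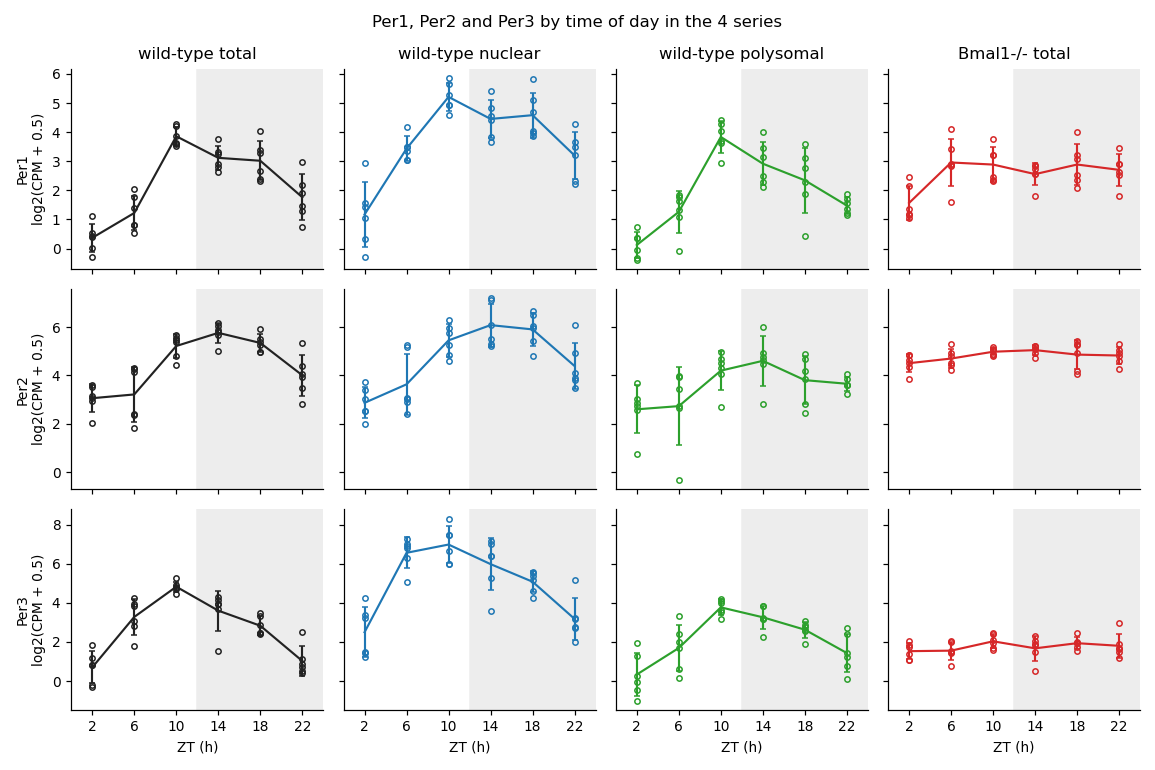
Level of Per1, Per2 and Per3, as log2(CPM + 0.5), against zeitgeber time in hours, with 1 column of panels per series. Open circles are single libraries (6 per time point), lines join the means, bars are the SD and grey marks the dark phase. In the 3 wild-type series the mean of each gene climbs from ZT2 to a maximum at ZT10 or ZT14, while the Bmal1-/- means of Per2 and Per3 stay within a 1.49-fold range and those of Per1 within a 3.08-fold range.

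All 3 members were also rhythmic in the nuclear and the polysomal RNA of wild-type liver. In nuclear RNA Per3 ran from 61.9 to 316 CPM at ZT10 and from 1.81 to 18.3 CPM at ZT2, with medians of 139 and 5.64 CPM. In polysomal RNA it ran from 8.47 to 18.1 CPM at ZT10 and from 0 to 3.32 CPM at ZT2, with medians of 13.6 and 0.593 CPM. The 2 times did not overlap in either compartment. Per1 had its highest mean at ZT10 in both, with 38.3 CPM ± 13.1 (SD, n = 6) in nuclear and 14.6 CPM ± 5.11 in polysomal RNA. Per2 had its highest mean at ZT14 in both, with 79.2 CPM ± 50.7 and 28.8 CPM ± 18.9. In nuclear RNA 3 of 3 members passed, where 5.99% of 11172 genes passed. The log2 peak-to-trough differences were 3.18 for Per1 (peak at ZT13.5), 3.18 for Per2 (ZT14.7) and 4.21 for Per3 (ZT10.8), with adjusted p of 2.50e-05, 8.76e-07 and 4.19e-06. In polysomal RNA, the RNA loaded with ribosomes, 3 of 3 members passed, where 7.9% of 10691 genes passed. The differences were 3.88 for Per1 (ZT13.3, adjusted p = 6.67e-07), 2.08 for Per2 (ZT14.5, adjusted p = 0.00269) and 3.29 for Per3 (ZT13.0, adjusted p = 1.83e-05). Without replicate 2 the polysomal rhythm of Per2 was 1.67 (adjusted p = 0.0521).

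The swing of a member was not shown to differ between the compartments. The interaction of series and rhythm called 0 of 3 members against wild-type total RNA in nuclear RNA (smallest adjusted p = 0.9997) and 0 of 3 in polysomal RNA (smallest adjusted p = 0.679, for Per3). In edgeR it called 0% of 11864 genes and 0% of 11556 genes, with 244 and 681 genes at an unadjusted p under 0.05, and DESeq2 called 0 and 15 genes. For Per3 the fitted log2 swing was 3.302 in polysomal and 4.10 in total RNA, and the fitted peak lay 1.55 h later in polysomal RNA.

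The order of the peaks was examined by fitting a cosine to each set of 6 libraries that share a replicate number within a series. In wild-type total RNA Per3 peaked between ZT10.98 and ZT11.99 over the 6 sets, Per1 between ZT12.7 and ZT14.8 and Per2 between ZT13.0 and ZT17.0. Per3 was ahead of Per1 by 2.32 h ± 0.801 (SD) and ahead of Per2 by 3.20 h ± 1.27, in 6 of 6 sets for both. The ranges of Per3 did not overlap with those of the other 2 members. In nuclear RNA the leads were 2.31 h ± 0.447 and 3.66 h ± 1.09, again in 6 of 6 sets. Each of these 4 leads had an exact 2-sided sign-flip permutation p of 0.031, the smallest that 6 sets allow, and 0.0938 after adjustment over the 18 comparisons of peak times.

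In polysomal RNA the lead of Per3 over Per1 was not seen, with a difference of -0.0681 h ± 1.45 (SD, n = 6, Per1 later in 3 of 6 sets, exact permutation p = 0.906). Per3 itself peaked at ZT13.2 ± 1.33 h (SD, n = 6) there against ZT11.5 ± 0.392 h in total RNA and ZT11.001 ± 0.593 h in nuclear RNA. Its polysomal peak was later by 1.66 h than in total RNA (exact 2-sided exchange permutation p = 0.00433) and by 2.17 h than in nuclear RNA (exact permutation p = 0.00649), and both had an adjusted p of 0.0584. The delay lay mostly in replicates 1 to 3, with polysomal peaks at ZT15.2, ZT14.35 and ZT13.1 against ZT11.3, ZT10.98 and ZT11.3 in total RNA. In replicates 4 to 6 the Per3 peaks were at ZT11.9, ZT12.1 and ZT12.5 against ZT11.8, ZT11.99 and ZT11.7. Replicate 1 is the polysomal replicate with the lung markers. For Per1 and Per2 the differences in peak time between the 3 compartments ran from -0.715 h to -0.0380 h, with exact permutation p from 0.277 to 0.955. None of the 18 comparisons passed after adjustment.

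**Figure D2:**
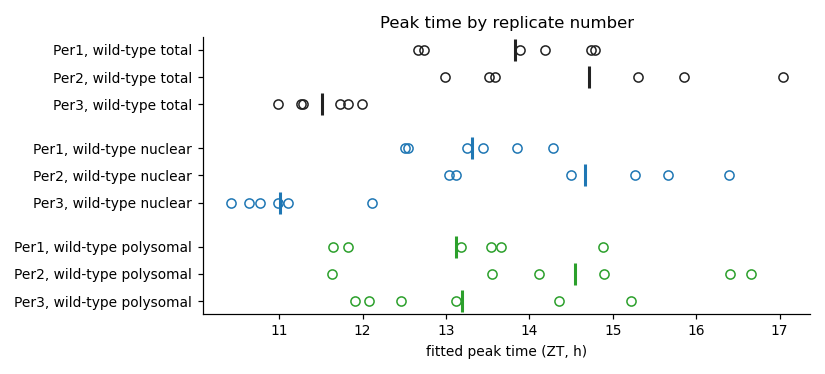
Fitted peak time (ZT, hours) of each member in the 3 wild-type series. Each open circle is 1 set of 6 libraries with the same replicate number and the bar is the mean of the 6 sets. In total and nuclear RNA the Per3 circles lie to the left of those of Per1 and Per2, while in polysomal RNA the 3 genes overlap.

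In Bmal1-/- liver none of the 3 members passed the test of rhythm, and the loss was itself tested. Per3 ran from 0.913 to 7.35 CPM over the 36 libraries, and the time-point means had their minimum of 2.48 CPM at ZT2 and their maximum of 3.70 CPM at ZT10. Per2 means ran from 22.9 CPM at ZT2 to 32.8 CPM at ZT14. Per1 means ran from 2.70 CPM at ZT2 to 8.32 CPM at ZT6, so ZT2 stayed the lowest time point of all 3 genes in this series, and neighbours in the order of means overlapped for each gene. The rhythm test called 0 of 3 members, where 0.00825% of 12126 genes (1 gene) passed in edgeR and 491 had an unadjusted p under 0.05. DESeq2 called 0 genes. The unadjusted p were 0.340 for Per1, 0.0508 for Per2 and 0.427 for Per3.

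The difference in rhythm between the genotypes passed for 3 of 3 members, where 5.11% of 12082 genes passed. The log2 swing of Per3 fell by 3.71, from 4.06 to 0.35 (adjusted p = 5.53e-08), which held place 13 by p among the genes tested. That of Per1 fell by 2.91, from 3.48 to 0.58 (adjusted p = 0.00277), and that of Per2 fell by 2.43, from 2.85 to 0.42 (adjusted p = 5.59e-06). With replicates 1 to 3 alone the adjusted p of Per1 was 0.0515, and with replicates 4 to 6 alone it was 0.167.

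Averaged over the day, Per3 was lower in Bmal1-/- liver and Per2 did not pass the test. Per3 averaged 3.06 CPM ± 1.21 (SD, n = 36) in Bmal1-/- and 10.4 CPM ± 10.01 in wild-type total RNA, a log2 change over the 6 time means of -1.18 (SE 0.16, adjusted p = 2.57e-09). Per2 averaged 28.7 CPM ± 7.26 (SD, n = 36) in Bmal1-/- and 28.8 CPM ± 20.04 in wild-type total RNA, and its log2 change of 0.21 (SE 0.12) did not pass (adjusted p = 0.166). Per1 averaged 6.36 CPM ± 3.57 and 6.24 CPM ± 5.36, and its log2 change over the 6 time points was 0.40 (SE 0.16, adjusted p = 0.0344). These log2 changes weight the 6 time points equally on the log scale, whereas the CPM averages are set mostly by the high time points. That call for Per1 was lost without any 1 of replicates 1, 2, 3, 4 and 6 (0.36 to 0.41, adjusted p up to 0.0970) and with counts at the end site only (0.33, adjusted p = 0.0957). Of 12082 genes 44.2% passed this test in either direction, and 2 of 3 members did.

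Time point by time point, Bmal1-/- liver had more Per1 and Per2 in the morning and less Per3 from the middle of the day into the night. Single time points passed in 10.9% of all gene and time pairs, and in 3 of 6 for Per1, 2 of 6 for Per2 and 4 of 6 for Per3. At ZT6 the 6 Bmal1-/- libraries of Per1 ran from 2.54 to 16.7 CPM with a median of 6.93 CPM, and the wild-type libraries from 0.959 to 3.61 CPM with a median of 1.69 CPM. The groups overlapped at their edges, and the log2 change was 1.99 (SE 0.39, adjusted p = 0.000248). Per1 was also higher at ZT2 (1.64, adjusted p = 0.0127). At ZT10 it was lower (-1.03, adjusted p = 0.0448), a call lost without any 1 of replicates 1, 2, 3, 5 and 6 (adjusted p up to 0.155). Per1 at ZT2 and Per2 at ZT6 also lost their calls without replicate 6 (1.33 and 0.87, adjusted p = 0.0889 and 0.108).

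Per2 in Bmal1-/- liver ran from 13.8 to 28.5 CPM at ZT2 with a median of 23.6 CPM, above all wild-type libraries of that time, whose highest was 11.7 CPM. The log2 change was 1.38 (SE 0.32, adjusted p = 0.00168), and at ZT6 it was 1.17 (SE 0.31, adjusted p = 0.00737). With replicates 1 to 3 alone the ZT6 change was 0.15 (adjusted p = 0.771). The wild-type libraries of ZT6 ran from 17.2 to 19.2 CPM in replicates 1 to 3 and from 3.02 to 4.79 CPM in replicates 4 to 6. At ZT14, the wild-type maximum, Per2 was -0.85 (SE 0.30, adjusted p = 0.0529). It passed at ZT14 with RLE size factors (-0.86, adjusted p = 0.0485), in DESeq2 (-0.85, adjusted p = 0.0348), without replicate 4 (-0.94, adjusted p = 0.0410) and without the 4 libraries with Xist (-0.84, adjusted p = 0.0385).

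Per3 at ZT10 ran from 2.52 to 4.97 CPM in Bmal1-/- with a median of 3.58 CPM, and every library lay below the lowest wild-type library, at 21.7 CPM. The log2 change there was -2.98 (SE 0.36, adjusted p = 8.18e-09). It was -2.11 at ZT6, -2.29 at ZT14 and -1.21 at ZT18 (adjusted p = 3.37e-05, 5.14e-06 and 0.0196), and it was 0.78 at ZT2 and 0.71 at ZT22 without passing (adjusted p = 0.259 and 0.275). The ZT18 call was lost without replicate 2 or 3 (-0.99 and -1.02, adjusted p = 0.119 and 0.142).

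**Figure D3:**
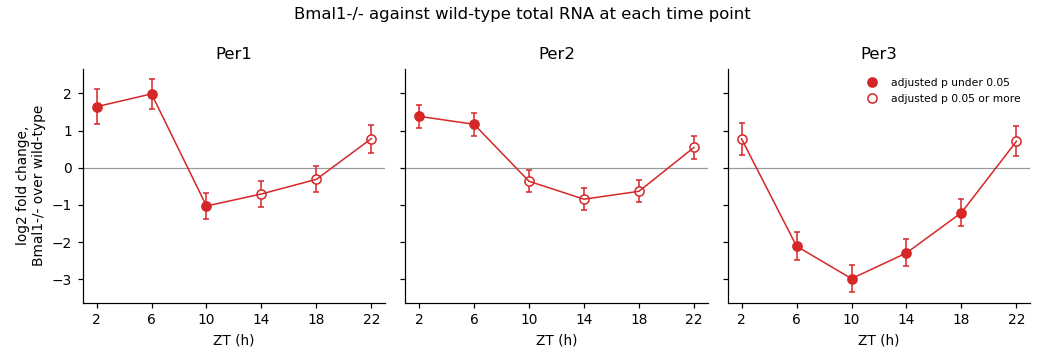
Log2 fold change of Bmal1-/- over wild-type total RNA against zeitgeber time in hours for each member. Points are edgeR estimates from 6 libraries per genotype and time, bars are SE, filled points have an adjusted p under 0.05 and the line at 0 marks no difference. Per1 and Per2 lie above 0 at ZT2, ZT6 and ZT22 and below it at ZT10 to ZT18, with filled points at ZT2 and ZT6 for both, while Per3 reaches its lowest value of -2.98 at ZT10.

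Within a time point, Per2 and Per3 varied together from library to library in wild-type total and nuclear RNA. After removing the time-point means, Per2 and Per3 varied together in wild-type total RNA (Pearson r = 0.64, n = 36, permutation p = 0.00032, adjusted p = 0.00128; Spearman rho = 0.60, permutation p = 0.00105, adjusted p = 0.00405), and r was 0.57 without the 2 libraries farthest from the median. In nuclear RNA all 3 pairs passed, with r = 0.46 for Per1 and Per2, 0.65 for Per1 and Per3 and 0.67 for Per2 and Per3, and without the 2 farthest libraries r was 0.49, 0.57 and 0.71. Their permutation p were 0.00158, 0.00013 and 1e-05 (adjusted p = 0.00474, 0.00078 and 0.00012), 1e-05 being the smallest that 100000 resamples give. Their Spearman rho were 0.53, 0.65 and 0.70 (permutation p = 0.00135, 7e-05 and 1e-05). The other 2 pairs in wild-type total RNA had r = 0.28 and 0.22, and none of the 3 polysomal pairs passed over all 36 libraries. Without the 2 farthest libraries polysomal Per2 and Per3 had r = 0.32 (permutation, adjusted p = 0.0392), below the 0.38 of all 36. The time-point means were not computed anew for that subset, so this pass shows no stronger relation. At ZT6 of wild-type total RNA Per2 ran from 17.2 to 19.2 CPM in replicates 1 to 3 and from 3.02 to 4.79 CPM in replicates 4 to 6. Per3 ran from 13.7 to 18.3 CPM and from 3.02 to 7.79 CPM there. At the other time points these sets of replicates overlapped for Per2, for Per3 or for both. The part of such differences between replicate sets in the correlations was not tested.

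In Bmal1-/- liver Per1 and Per2 had r = -0.41 (n = 36, permutation p = 0.0296, adjusted over 12 relations p = 0.0710; rho = -0.31, permutation p = 0.0987) and the other 2 pairs had r = 0.06 and -0.002. The spread of a member between libraries of 1 time point was 0.68 and 0.74 log2 units (SD) for Per2 and Per3 in wild-type total RNA and 0.36 and 0.46 in Bmal1-/-. Per1 had 0.57 and 0.62. In the library with Xist at ZT22 of both wild-type total and nuclear RNA, Per2 and Per3 were the highest of the 6 libraries, and its part in these correlations was not tested.

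By likeness of profile, some genes were closer to each member than the other members were in wild-type total RNA. The 5 genes with the highest Pearson r to Per1 over the 36 libraries were Usp2 (0.95), a deubiquitinase that acts on clock proteins, Klf13 (0.89), Tef (0.85), Coq10b (0.85) and the cell-cycle kinase gene Wee1 (0.84). Those of Per2 were Noct (0.89), which encodes the phosphatase nocturnin, Homer2 (0.87), Gm14387 (0.86), Amd1 (0.85) and Usp2 (0.83). Those of Per3 were Dbp (0.92), Tef (0.91), Pcsk4 (0.89), Upp2 (0.89) and Ciart (0.88). Between the members r was lower, at 0.79 for Per1 and Per2, 0.69 for Per1 and Per3 and 0.62 for Per2 and Per3. Among 11963 genes ranked by r, Per2 held place 14 and Per3 place 52 for Per1. For Per2 the places were 19 for Per1 and 156 for Per3, and for Per3 they were 76 for Per1 and 165 for Per2. In Bmal1-/- the genes chosen the same way were led by Ddx3x (0.70) for Per1 and Gm43071 (0.69) for Per3, and r of Per1 with Usp2 was 0.36 there. These correlations share libraries and the time of day and are descriptions.

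Other clock genes were also rhythmic in wild-type liver. Of 16 listed (among them Arntl, Clock, Cry1, Cry2, Nr1d1, Nr1d2, Dbp and Tef), 14 of the 15 tested were rhythmic in wild-type total RNA (18.9% of all genes). Their median swing was 2.53 log2 units against 0.32 over all genes. In Bmal1-/- RNA 0 of 13 were called, where 0.00825% of 12126 genes passed, so that count sets them apart from few genes. The difference in rhythm passed for 12 of 16 (5.11% of all genes), with the smallest p for Dbp (swing 6.58 in wild type and 0.40 in Bmal1-/-, adjusted p = 5.99e-13) and for Cry1, whose protein is the partner of PER in repression (2.89 and 0.36, adjusted p = 6.56e-11). Over the day 8 of the 16 were higher and 5 lower in Bmal1-/-, where 44.2% of all genes passed in either direction, with Cry1 at 1.71 (SE 0.09, adjusted p = 1.22e-25) and the repressor gene Nr1d2 at -2.79 (SE 0.14, adjusted p = 4.15e-25).

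The genes for enzymes and partners of the PER proteins were called in rhythm at about the share of all genes and in level less often. Of 20 listed, among them the casein kinases that phosphorylate PER and the ligase subunits that mark it for degradation, 3 of the 18 tested were rhythmic in wild-type total RNA (18.9% of all genes), with a median swing of 0.15 log2 units against 0.32 over all genes. The smallest p were those of Usp2 (4.66, peak at ZT13.6, adjusted p = 4.19e-07) and of the RNA-binding factor gene Sfpq (0.65, peak at ZT16.1, adjusted p = 0.000198). The difference in rhythm between the genotypes passed for 1 of 20 (5.11% of all genes), Usp2 (adjusted p = 2.47e-05), and Sfpq did not pass (adjusted p = 0.122). In level, 4 of 20 were higher and 2 lower in Bmal1-/-, where 44.2% of all genes passed in either direction, and the smallest p were those of Usp2 (-1.14, SE 0.16, adjusted p = 2.68e-08) and Sfpq (0.33, SE 0.05, adjusted p = 1.91e-07).

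Most genes induced by glucocorticoids, cAMP, heat or serum, signals that also act on Per1 or Per2, were rhythmic in wild-type liver. Of 14 listed, 10 of the 12 tested were rhythmic in wild-type total RNA (18.9% of all genes), with a median swing of 1.79 log2 units. The smallest p were those of the glucocorticoid-induced genes Tsc22d3 (1.93, peak at ZT17.7, adjusted p = 2.49e-09) and Fkbp5 (2.59, peak at ZT16.1, adjusted p = 5.94e-07). In Bmal1-/- 0 of 13 passed, where 0.00825% of 12126 genes passed. The difference in rhythm passed for 6 of 13 (5.11% of all genes), with the smallest p for Tsc22d3 (adjusted p = 5.53e-08) and the heat shock gene Hsph1 (adjusted p = 8.40e-05). Over the day 6 of 13 were higher and 3 lower in Bmal1-/-, where 44.2% of all genes passed in either direction, and the smallest p were those of Hspb1 (-3.33, SE 0.21, adjusted p = 1.56e-21) and Tsc22d3 (0.79, SE 0.08, adjusted p = 2.11e-13).

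By gene count, Per1 and Per3 were higher in nuclear than in total RNA and Per2 did not pass. For Per2 and Per3 this contrast depends on which reads the gene count holds, as given below. The log2 change over the day was 1.57 for Per1 (SE 0.16, adjusted p = 6.54e-14), 2.49 for Per3 (SE 0.20, adjusted p = 1.88e-17) and 0.29 for Per2 (SE 0.17, adjusted p = 0.106), where 83.8% of 11864 genes passed in either direction. At single time points, where 60.1% of gene and time pairs passed, Per1 passed at 6 of 6 (1.36 to 2.30), Per3 at 6 of 6 (2.20 to 3.20) and Per2 at 0 of 6. In polysomal RNA Per2 was -0.82 (SE 0.18, adjusted p = 6.06e-05) and Per3 -0.61 (SE 0.20, adjusted p = 0.00484) against total RNA, and Per1 was -0.30 (SE 0.17, adjusted p = 0.110), where 76.1% of 11556 genes passed. Per1 passed with RLE size factors (-0.39, adjusted p = 0.0379), in DESeq2 (-0.39, adjusted p = 0.0320) and without replicate 1 (-0.44, adjusted p = 0.0202), the replicate with the lung markers. Without replicate 3 polysomal Per3 did not pass (-0.44, adjusted p = 0.0620).

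These gene counts cover different parts of the 3 genes, which the site counts show. The site at the end of Per1 (chr11:69109855-69109960) held 87.9% of the gene count in wild-type total and 88.8% in nuclear RNA. That of Per2 (chr1:91415979-91416102) held 94.5% and 84.1%. For Per3 the 3 last sites, within chr4:151003657-151003795 and at least 6639 bp upstream of the annotated gene end, held 38.6% of the gene count in total RNA, 56.8% in polysomal RNA and 8.14% in nuclear RNA. With the counts at these end sites in place of the gene counts, a setting chosen after seeing the data, nuclear Per3 was 0.29 above total RNA (SE 0.23, adjusted p = 0.225) instead of 2.49, and it passed at 0 of 6 time points. Nuclear Per2 was 0.12 above total RNA (SE 0.17, adjusted p = 0.513), so with end sites neither Per2 nor Per3 passed in nuclear RNA. Nuclear Per1 stayed at 1.58 (SE 0.18, adjusted p = 1.49e-12), and polysomal Per3 was -0.20 (SE 0.24, adjusted p = 0.456). The Per3 swing was 3.85 in total RNA and 3.74 in nuclear RNA with end sites only, and in Bmal1-/- its level was -1.04 (SE 0.19, adjusted p = 8.77e-06). Its fitted peaks with end sites only were ZT11.9 in total, ZT11.0 in nuclear and ZT13.1 in polysomal RNA. The interaction of series and rhythm for polysomal Per3 then had an adjusted p of 0.958.

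Nuclear RNA held many Period reads that ended inside Per2 and Per3. The authors' full list has 4 sites on the strand of Per2 and 13 on that of Per3. In Per2, 3 of them lie upstream of the end site and took 70.6% of the site counts in nuclear RNA (libraries from 40.5% to 90.4%, median 68.8%). In total RNA they took 12.8% (1.64% to 23.2%) and in polysomal RNA 9.47%. The nuclear libraries all lay above the total RNA libraries. The strongest, at chr1:91453768-91453822, lies 37791 bp upstream of the annotated gene end, and it held 58.3 CPM ± 55.4 (SD, n = 36) in nuclear RNA, 2.45 CPM ± 2.03 in total RNA and 1.18 CPM ± 1.66 in polysomal RNA. It is not in the filtered list, and the Per2 gene count in nuclear RNA, 5773 over the series, is smaller than the 16511 counts of its sites, so the gene count does not hold all reads of these sites.

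The inner sites of Per2 followed the daily course of the gene. In nuclear RNA the site at chr1:91453768-91453822 ran from 1.91 to 11.4 CPM at ZT2 with a median of 3.22 CPM and from 50.2 to 157 CPM at ZT18 with a median of 108 CPM. The 2 times did not overlap. The fitted swing was 3.91 log2 units with a peak at ZT13.8 (adjusted p = 8.83e-06), and that of the end site at chr1:91415979-91416102 was 3.05 with a peak at ZT14.6 (adjusted p = 2.08e-06). In total RNA the inner site had a swing of 3.61 with its peak at ZT13.8 (adjusted p = 5.34e-07), and in Bmal1-/- 0.48 (adjusted p = 0.9999).

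In Per3, 10 of the 13 sites lie upstream of the 3 last sites and took 88.5% of the site counts in nuclear RNA (libraries with 10 or more counts from 73.9% to 100%), 50.2% in total RNA (20% to 73.3%), 19% in polysomal RNA (0% to 60%) and 45.5% in Bmal1-/- total RNA (9.52% to 68.8%). The nuclear libraries lay above all total RNA libraries. The inner site that the authors' filter kept, chr4:151011539-151011571, lies 14521 bp upstream of the annotated gene end. It held 15.0 CPM ± 17.0 (SD, n = 36) in nuclear RNA, 1.09 CPM ± 1.04 in total RNA and 3 counts over the 36 polysomal libraries. Which exon or intron these sites lie in was not determined here, and priming on internal stretches of A was not tested.

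**Figure D4:**
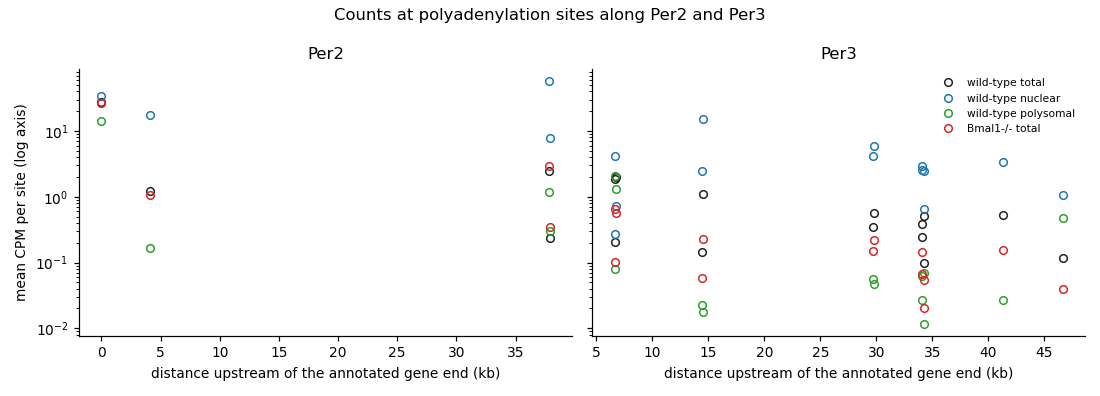
Mean CPM per polyadenylation site over 36 libraries (log axis) against the distance upstream of the annotated gene end in kb, for the sites on the strand of Per2 and of Per3, with 1 colour per series. Nuclear RNA (blue) lies above the other series at the inner sites, with 58.3 CPM at the Per2 site 37791 bp upstream, while the end site of Per2 holds 33.6 CPM in nuclear and 27.2 CPM in total RNA.

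Among the 3 Per3 sites of the filtered list, usage (a site's share of the gene's site counts) differed between the compartments and passed no test of time or genotype with all 6 replicates. Per1 and Per2 have 1 filtered site each, so usage within that list could be tested for Per3 only. With the full list, Per2 usage in nuclear RNA changed by -1.46 log2 units at the end site (edgeR, adjusted p = 1.87e-25). At chr1:91453768-91453822 it changed by 2.74 (adjusted p = 8.04e-33), where 20012 of 25875 sites passed. In polysomal RNA neither Per2 site passed (0.03 and -0.21, adjusted p = 0.522 and 0.586). The inner Per3 site took 22.3% of 1415 site counts in wild-type total RNA, 74.8% of 2746 in nuclear RNA, 0.472% of 636 in polysomal RNA (95% exact interval 0.0974% to 1.37%, counting error only) and 15.8% of 425 in Bmal1-/-. The log2 change in its usage was 1.61 in nuclear RNA (SE 0.13, adjusted p = 3.10e-18) and -5.05 in polysomal RNA (SE 0.44, adjusted p = 1.21e-13). The last site, chr4:151003657-151003679, was lower in nuclear RNA (-0.63, SE 0.21, adjusted p = 0.00548) and higher in polysomal RNA (0.79, SE 0.19, adjusted p = 0.000226). Without replicate 2 its nuclear change was -0.53 (adjusted p = 0.107).

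The neighbouring site, chr4:151003753-151003795, which lies 6735 bp upstream of the annotated gene end against 6639 bp for the last site, took 40.4% of the counts in total RNA and 3.75% in nuclear RNA (-3.25, SE 0.28, adjusted p = 1.06e-16). In polysomal RNA it took 38.4% (-1.10, SE 0.50, adjusted p = 0.0458), and that call was lost without any 1 of replicates 1, 2, 3, 4 and 6 (adjusted p up to 0.0936). The pooled shares of this site in total and polysomal RNA are close, whereas the fitted change weights the 6 time points equally, and the polysomal libraries of ZT2 held 0 counts at it. So 3 of 3 sites passed in nuclear RNA, where 73.9% of 18304 sites passed, 3 of 3 in polysomal RNA, where 67% of 18476 passed, and 0 of 3 in Bmal1-/- (smallest adjusted p = 0.164, for the inner site at -0.64), where 6.56% of 18786 passed. Without replicate 3 the inner site passed in Bmal1-/- (-1.32, adjusted p = 0.0146), and with replicates 4 to 6 alone it did too (-1.25, adjusted p = 0.0413). A 24 h rhythm in usage passed for 0 of the Per3 sites tested in wild-type total, nuclear, polysomal and Bmal1-/- RNA, where 0.262% of 18691, 0.0258% of 15503, 0.0425% of 16455 and 0% of 18645 sites passed in edgeR. In Bmal1-/- 413 sites had an unadjusted p under 0.05. The smallest unadjusted p of a Per3 site was 0.149.

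As single sites, all those with enough counts to be tested were rhythmic in the 3 wild-type series. In wild-type total RNA 5 of 5 tested sites in the 3 genes passed, where 11.5% of 28052 sites passed, and in nuclear RNA 12 of 12, where 4.4% of 24885 passed. In polysomal RNA 3 of 3 passed, where 3.36% of 20687 passed, and in Bmal1-/- 0 of 3, where 0% of 29959 passed in edgeR, with 812 at an unadjusted p under 0.05. In nuclear RNA the 7 sites of Per3 that were tested peaked between ZT9.88 and ZT10.9, and the 4 sites of Per2 between ZT13.8 and ZT14.6. The 2 ranges did not overlap.

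On the strand opposite to Per2 the full list holds 2 further sites, at chr1:91447534-91447552 and chr1:91453216-91453234. The mean of their sum was highest at ZT6 in wild-type total and nuclear RNA. Both sites lie within the span of the long noncoding RNA gene Gm35591 (chr1:91443003-91457770), and the RefSeq table used here gives no strand for it. Their summed level in nuclear RNA ran from 1.48 to 7.65 CPM at ZT6 with a median of 3.51 CPM, and from 0 to 0.665 CPM at ZT14 with a median of 0.0949 CPM. In total RNA it ran from 1.10 to 1.95 CPM at ZT6 and from 0 to 0.454 CPM at ZT14. ZT6 and ZT14 did not overlap in either series, and the Per2 end site was at 14.6 CPM ± 13.2 (SD, n = 6) at ZT6 and 66.1 CPM ± 43.4 at ZT14 in nuclear RNA. Its lowest nuclear mean was 6.39 CPM ± 3.10 at ZT2. The inner Per2 site at chr1:91453768-91453822 had nuclear means of 4.44 CPM ± 3.52 at ZT2 and 34.65 CPM ± 17.6 at ZT6.

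These 2 sites average fewer than 10 counts per library, so they were tested in the fit with no filter on low counts. Such fits called 3123 of 86685 sites in wild-type total and 1503 of 86262 in nuclear RNA. They called 4798 of 83761 in polysomal and 4 of 86697 in Bmal1-/- RNA. In wild-type total RNA the 2 sites opposite Per2 peaked at ZT5.69 and ZT3.85 (swings 2.52 and 4.62 log2 units, adjusted p = 0.00733 and 5.65e-05). In nuclear RNA they peaked at ZT4.97 and ZT2.69 (3.20 and 3.78, adjusted p = 0.0139 and 0.00537). In polysomal RNA the adjusted p were 0.493 and 0.00203, and the latter rests on 6 counts, all at ZT2. In Bmal1-/- the adjusted p was 1 for both, with 79 counts over the series against 194 in wild-type total RNA, and the difference between the genotypes was not tested. The series totals of 194, 220, 54 and 79 counts in total, nuclear, polysomal and Bmal1-/- RNA limit the precision of these values.

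**Figure D5:**
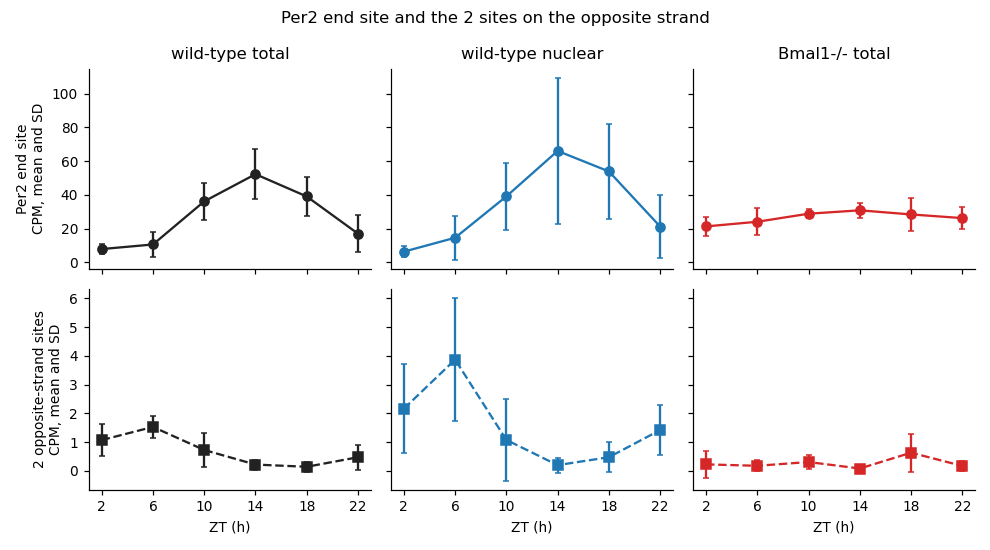
Level of the Per2 end site (upper panels) and summed level of the 2 sites on the opposite strand (lower panels) in CPM against zeitgeber time in hours, as the mean and SD of 6 libraries. In wild-type total and nuclear RNA the upper curves are highest at ZT14 and the lower curves at ZT6, while in Bmal1-/- the means of the lower curve stay between 0.0776 and 0.628 CPM.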

How the data were processed

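Liver RNA of 144 libraries was counted per gene and per polyadenylation site. The authors deposited raw read counts, not normalized, for 51912 gene rows and 86780 sites, with 29199 sites left after their filter, per the file headers. The submitters' processing notes name STAR 2.4.2a, edgeR, HOMER and the builds mm10 and GRCm38.p5. The settings of the aligner and of the counting are not given in the sources used here. Their TMM-scaled tables were not used. Columns were assigned to samples by their titles. Gene positions came from the RefSeq table for GRCm38.p6.

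Counts were tested with edgeR 4.0.16 (TMM scaling, robust quasi-likelihood F test, genes averaging 10 counts or more) in R 4.3.3, with Benjamini-Hochberg adjustment over all genes or sites tested and a threshold of 0.05. Rhythm was a 24 h cosine and sine pair, and its difference an interaction with series. Levels were contrasts of time means. Usage was tested with the log of the gene's site total plus 0.5 as offset, for sites with at least 5% of the counts of genes averaging 10 or more. Peak times came from least-squares cosines on log2(CPM + 0.5) per replicate number. Scripts were tested on simulated data. Alternatives were RLE size factors, DESeq2 1.42.0, no filter, other site filters, another pseudocount, a replicate block, 1 fit of all series, parts of the replicates, and libraries left out. The members and lists were chosen with earlier results of these data known. From each list the genes with the 2 smallest p are named, and for each member the 5 genes with the highest Pearson r in wild-type total RNA. In Bmal1-/- RNA only the leading gene is named, and that of Per2 is not reported here.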

Additional observations from a re-analysis of the deposited data

Results flagged for a closer look

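In 6 of 72 groups of 6 libraries, 1 library lay far from the others by Dixon's ratio of gap to range at the 95% level, and chance gives about 1 group in 20. Nuclear Per1 of replicate 2 was at 7.19 CPM at ZT2 (others 0.326 to 2.43 CPM) and at 17.6 CPM at ZT6 (others 7.70 to 10.8 CPM). At ZT22, Per2 of nuclear replicate 5 was at 67.7 CPM (others 10.7 to 30.0 CPM) and Per3 of the same library at 35.3 CPM (others 3.55 to 8.86 CPM). Per3 was at 5.20 CPM in replicate 5 of wild-type total RNA (others 0.855 to 1.66 CPM) and at 7.35 CPM in replicate 6 of Bmal1-/- (others 1.74 to 3.19 CPM), also at ZT22.

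These last 4 values come from libraries with more than 100 CPM of Xist, which held 408 CPM in wild-type total, 4363 CPM in nuclear and 491 CPM in Bmal1-/- RNA. The polysomal library with Xist (165 CPM) had Per3 at 5.99 CPM (others 0.568 to 4.73 CPM). Per3 was thus the highest of 6 in all 4 libraries, while Per2 was so in 3 of 4, with 11.6 CPM in the polysomal library above 2 of 5 others. Per1 was also the highest in 3 of 4, and in wild-type total RNA it was above 4 of 5 others. Without these 4 libraries, 53 of 54 values for the genes kept their direction and their side of the threshold, the exception being Per2 in Bmal1-/- at ZT14.

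The change in log2 swing from wild-type total to Bmal1-/- passed the interaction test for Per1 (-2.91), Per2 (-2.43) and Per3 (-3.71).

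The 2 sites opposite Per2, which the comparisons of genes do not use, collected 194 counts in wild-type total RNA and 220 in nuclear RNA.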

How the results depend on the processing

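Of 1191 alternative values for 101 results, 1078 kept their direction and their side of the threshold. Causes of the changes below were not tested. With counts at end sites only, chosen after seeing the data, the log2 level against wild-type total RNA was 0.29 for nuclear Per3, -0.20 for polysomal Per3 and 0.33 for Bmal1-/- Per1, nuclear Per3 passed at 0 time points, its difference in swing was -0.16, and Per3 in Bmal1-/- had a swing of 0.22. Polysomal Per1 passed with DESeq2 (-0.39) and RLE size factors (-0.39). Without a filter, Bmal1-/- Per1 was at 0.40 (adjusted p = 0.0620). In that setting 19, 19 and 8 sites were rhythmic in wild-type total, nuclear and polysomal RNA, counts that take in sites opposite Per2. Of all sites, 3123 of 86685, 1503 of 86262 and 4798 of 83761 passed in these series. With all 4 series in one fit, Per2 passed at 1 time point in Bmal1-/-. With all sites of the unfiltered list, the polysomal usage of chr4:151003753-151003795 was -0.90. With cosines fitted to CPM, Per3 peaked 2.57 h later in polysomal than in nuclear RNA (exact permutation, adjusted p = 0.0390) and Per2 0.0236 h later in nuclear than in total RNA. With time as a factor, Per1 in Bmal1-/- had a swing of 1.58. Without the 2 farthest libraries, r of Per2 and Per3 was 0.32 in polysomal and 0.017 in Bmal1-/- RNA.

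With replicates 1 to 3 alone, polysomal Per2 had a swing of 2.997 (adjusted p = 0.124), and the differences in swing were -2.50 for Bmal1-/- Per1, 0.17 for polysomal Per2 and -0.13 for nuclear Per3. Per2 then passed at 4 time points in Bmal1-/-, with ZT6 not among them (0.15). Usage of chr4:151003657-151003679 was -0.59 in nuclear and 0.58 in polysomal RNA, and that of its neighbour -1.16 in polysomal RNA. The correlations were 0.60 for Per2 and Per3 in total RNA, 0.38 and 0.62 for Per1 with Per2 and Per3 in nuclear RNA, and -0.047 for Per1 and Per3 in Bmal1-/-. With replicates 4 to 6 alone, the differences in swing were 0.084 for nuclear, -0.50 for polysomal and -3.02 for Bmal1-/- Per1. Levels were -0.58 for polysomal Per1, -0.27 for polysomal Per3, 0.31 for Bmal1-/- Per1, 0.41 for Bmal1-/- Per2 and 0.034 for the latter at ZT10. In Bmal1-/- Per1 passed at 1 and Per3 at 2 time points. Usage of chr4:151003753-151003795 was -0.79 in polysomal and 0.29 in Bmal1-/- RNA, and that of the inner site -1.25 in Bmal1-/-. The correlations were 0.62 for Per2 and Per3 in total RNA, 0.53 and 0.66 for Per1 with Per2 and Per3 in nuclear RNA, and 0.24 for Per2 and Per3 in Bmal1-/-. For the correlations within either set of replicates, and for those without the 2 farthest libraries, the time-point means removed were those of all 6 replicates.

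Leaving out 1 replicate number at a time gave levels of 0.36 to 0.51 for Bmal1-/- Per1, -0.44 to -0.22 for polysomal Per1, 0.25 to 0.44 for nuclear Per2 (passing without replicate 3) and -0.80 to -0.44 for polysomal Per3. Polysomal Per2 had swings of 1.67 to 2.30, and the polysomal difference in swing of Per1 was -0.042 to 0.79. Bmal1-/- Per1 and Per2 each passed at 1 to 3 time points. Usage was -0.74 to -0.47 for chr4:151003657-151003679 in nuclear RNA, -1.22 to -1.05 for chr4:151003753-151003795 in polysomal and -0.18 to 0.0067 in Bmal1-/- RNA, and -1.32 to -0.50 for the inner site in Bmal1-/- (passing without replicate 3). Peak differences were -0.34 to 0.46 h for polysomal Per1 minus Per3, -0.71 to 0.26 h for Per1 polysomal minus nuclear, and for Per2 -0.36 to 0.073 h nuclear minus total, -0.93 to 0.67 h polysomal minus total and -0.81 to 0.67 h polysomal minus nuclear.

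Same-numbered libraries of nuclear and total RNA deviated together at most time points (mean r = 0.302, over 0.1 in 35 of 36 pairs, own number best in 31 of 36), a hint from the data that they may share animals, and their ZT22 libraries with Xist are both replicate 5. The labels do not state this and 1 pair was not over 0.1, so the numbers were not taken to pair samples. For polysomal RNA 0 of 36 pairs and for Bmal1-/- RNA 13 of 36 were over 0.1. With the number as a block, 98 of 101 values kept their call. For the peak of Per1 in nuclear minus total RNA (-0.520 h without the block), the adjusted p of the exact sign-flip permutation was then 0.0938 instead of 0.411. The others were correlations that now passed: 0.50 for Per1 and Per2 and 0.47 for Per2 and Per3 in polysomal RNA, and -0.46 for Per1 and Per2 in Bmal1-/-. Depth limits Per1 and Per3 at their low times, where single libraries of wild-type total RNA held as few as 2 counts.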
